A study of Mus musculus with 2 samples.

Results

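The Pro-osteoblast cells of mouse bone marrow stroma were compared along the authors' osteoblast path, late cells against early cells. Members were the passing cells that the authors classed as Pro-osteoblast and that carry an osteoblast pseudotime, a rank from 0 to 1 that the authors gave to cells on the path toward osteoblasts. They numbered 347 of 2847 passing cells, 42 in the sample Stroma1 and 305 in the sample Stroma2, and no passing cell of the class lacked a pseudotime. Each sample was split at its own median rank into an early and a late group. The early group held 21 cells of Stroma1 and 153 of Stroma2, and the late group 21 and 152. The last early and first late cells stood at 0.894 and 0.8971 in Stroma1 and at 0.9112 and 0.9117 in Stroma2, so neighbours at the split were nearly alike in rank.

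Osteoblasts are the cells that build bone. They arise from marrow stromal cells through the transcription factors Runx2 and Sp7, secrete a matrix made mostly of type I collagen, and mineralize it. Osteocalcin, encoded by the Bglap genes, is a late product of mature osteoblasts, and some osteoblasts become buried in bone as osteocytes. The stromal cells from which they arise make niche factors for blood stem cells, of which the chemokine Cxcl12 is the best known.

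The study took stromal cells from the marrow of mice labelled strain C56BL/6 and aged 8 to 16 weeks. Femurs, tibiae and pelvic bones were crushed, the fragments were digested with collagenase and dispase, and viable cells without CD45, Ter119 and CD31, markers of blood, red and endothelial cells, were sorted. Single cells were captured with inDrops, a droplet method, in 2 libraries for Stroma1 and 3 for Stroma2. No treatment is given, and the labels leave it unsaid if Stroma1 and Stroma2 are different animals.

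Because the authors ranked the cells by their RNA, every gene of these cells may have helped to set the rank. Differences between the groups are therefore given as a description of the ranked cells and are no test of the ranking. Counts were summed per group and sample, which gives 4 sums, since cells of 1 sample are not replicates. Levels are in CPM, the counts of a gene in each 1000000 counts of a sum, and are compared only within a gene. Log2 changes are late minus early from a fit over the 4 sums with TMM scaling, which sets the bulk of genes near 0 where a few genes take a large share of the counts. On that scale a gene with equal CPM in both groups has a log2 change of 0.27 in Stroma1 and 0.14 in Stroma2. A gene is called higher or lower in both samples by its log2 change in each sample on the TMM scale, and in a library by CPM. The 5 libraries are parts of the 2 samples and are not replicates, so one direction in all 5 is a description only. The share of all genes tested with one direction in all 5 was not computed, nor was the share whose early and late sums did not overlap.

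Depth differed between the groups. The early sums held 77902 counts in Stroma1 and 635949 in Stroma2, and the late sums 109326 and 814848. The median cell had 3618 and 3220 counts in the early groups and 4759 and 5019 in the late groups. Shallow cells thus gathered in the early groups: those with under 1000 counts were 6 of 21 and 30 of 153 early cells, but 1 of 21 and 9 of 152 late cells. Mitochondrial counts were 4.44% and 3.93% of the early sums and 4.00% and 3.59% of the late sums, with exact 95% intervals no wider than 0.15 percentage points to either side. These intervals leave out the spread between cells. Within a sample, 189 of the 347 cells carried the barcode of another member cell in a different library. These cells made up 84 shared barcodes, of which 40 had copies in both groups, and no barcode was shared between the samples. With each barcode used once, which left 242 cells, 168 of the 182 named genes that could be fitted had a log2 change of the same sign, and the 14 others were within 0.14 of 0 in the fit over all cells. Of 28 list medians, 26 had the same sign. Further values with each barcode once stand beside the results they belong to.

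Markers of osteoblasts and of other cells were counted in the class. Col1a1, Col1a2, Bglap, Bglap2, Ibsp, Spp1, Alpl, Sp7, Runx2 and Ifitm5 were all counted in every sum. A count alone does not set the class apart. Ibsp stood at 5629 and 5962 CPM in the authors' MSC class, above all 4 sums, and Runx2 at 287 and 303 CPM. Col1a1 was at 483 and 829 CPM there and Bglap at 0 and 2.92 CPM, below all 4 sums. Of the osteocyte markers, Dmp1 and Phex were present, while Sost and Fgf23 had no count, which allows up to 1.83 CPM over the 4 sums (3 counts), and Mepe had 3 counts in all. Col2a1, a cartilage collagen, stood at 436 and 620 CPM early and at 284 and 843 CPM late. The other defining cartilage genes were near 0, with Comp at 0, Acan at 2 counts, Sox9 at 2 and Col9a1 at 3 over the 4 sums. The 28 blood cell markers summed to 154 and 78.6 CPM in the early groups and to 27.4 and 34.4 CPM in the late groups, and 10 of them were at 0 throughout. The 14 endothelial and mural markers summed to 89.9 and 99.1 CPM early and to 36.6 and 35.6 CPM late. The part of these markers in the differences below was not tested.

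Of 3307 genes that passed the count filter, 2 were called at an adjusted p under 0.05, which is 0.0605% of the genes tested. Both were lower in the late group: Cxcl12 and Igfbp4. No gene was called higher. At an unadjusted p under 0.05, edgeR gave 48 higher (1.45%) and 53 lower genes (1.6%), and DESeq2 called the same pair and Tnc. With 1 library left out at a time, the number of calls was 17 without library 1.1, 18 without 1.2, 13 without 2.1, 8 without 2.2 and 3 without 2.3. With each barcode once it was 21, of which 2 were higher and 19 lower. Since a gene has 1 residual degree of freedom in these 4 sums, the genes below are described by their values in each sample, and only Cxcl12 and Igfbp4 are called changed.

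Direction in both samples gives a second description. In both samples, 886 genes (26.8%) were higher late and 866 (26.2%) lower, and the median log2 change over all genes was 0.02. These shares are the background for the members counted as higher or lower in each gene list below. A gene could pass the filter through the counts of a single group, so counts of members that passed describe a list and support nothing. At least 2-fold differences in both samples were fewer: 21 genes (0.635%) were at least 2-fold higher late and 60 (1.81%) at least 2-fold lower. Without TMM scaling the median over all genes was −0.15, and the log2 changes of single genes were lower by a like amount. No Bglap copy and no collagen was among the 21.

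**Figure D1:**
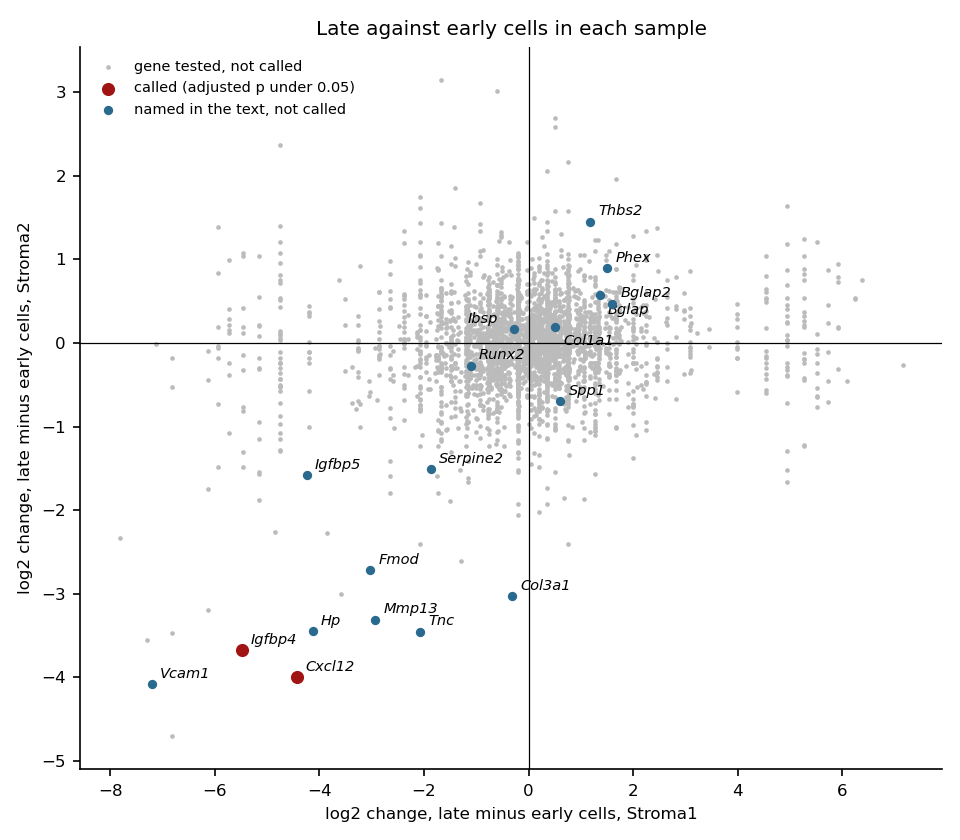
Log2 change between the late and the early group in Stroma1 (horizontal axis) and Stroma2 (vertical axis), 1 point per gene that passed the count filter. Red points are the 2 called genes, Cxcl12 and Igfbp4, at the lower left; the Bglap copies and Phex lie to the upper right, and the columns of points far left and right are genes with 0 or very few counts in a group of Stroma1.

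Promoter sequences are shown for 3 genes on which the description turns, the called pair on the lower side and Bglap, the most abundant osteocalcin copy, on the higher. They are the 250 bases before the transcription start from RefSeq on GRCm38.p6, 5′ to 3′ on the gene's strand. Of Bglap, Bglap2, Bglap3, Cxcl12 and Igfbp4, 4 had an entry. Capitals mark ACCACA or its reverse complement TGTGGT, the core letters that Runx factors bind, searched on both strands.
Bglap, chr3:88384467-88384716, minus strand: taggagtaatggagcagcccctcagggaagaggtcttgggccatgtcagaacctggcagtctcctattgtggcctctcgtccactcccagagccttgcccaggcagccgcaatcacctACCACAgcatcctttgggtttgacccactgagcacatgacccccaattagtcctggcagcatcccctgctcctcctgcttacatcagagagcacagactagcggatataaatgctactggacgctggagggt
Cxcl12, chr6:117168285-117168534, plus strand: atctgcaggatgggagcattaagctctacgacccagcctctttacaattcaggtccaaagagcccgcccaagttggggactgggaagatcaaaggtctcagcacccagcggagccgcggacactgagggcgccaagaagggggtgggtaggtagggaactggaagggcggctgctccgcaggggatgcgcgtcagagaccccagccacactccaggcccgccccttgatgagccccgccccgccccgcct
Igfbp4, chr11:99040994-99041243, plus strand: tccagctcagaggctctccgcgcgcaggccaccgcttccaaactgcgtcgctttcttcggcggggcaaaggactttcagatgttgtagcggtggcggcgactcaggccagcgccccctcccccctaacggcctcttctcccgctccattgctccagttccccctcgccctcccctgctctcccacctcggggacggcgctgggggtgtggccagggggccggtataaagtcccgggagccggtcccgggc
The Bglap window held 1 match, which ended 127 bases before the start, and the windows of Cxcl12 and Igfbp4 held none. None of the 3 Bglap3 windows held these letters. Of 32851 windows of this length in the table, 14.0% held a match, so a match alone sets no gene apart. No exon of the GENCODE M21 annotation overlapped the 3 windows printed. The G and C content was 56.4% for Bglap, 64.4% for Cxcl12 and 69.2% for Igfbp4, beside a median of 52.4% over all windows.

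Cxcl12, a chemokine that keeps blood stem cells in their niche, fell. Its gene lies on chromosome 6 (117168535 to 117181367 on GRCm38). It stood at 3851 CPM in the early group of Stroma1 and 1024 CPM in that of Stroma2, against 146 and 58.9 CPM in the late groups. Both late values lay below both early values. The log2 change was −4.15 (SE 0.21), and it was −4.27 with each barcode once. In each of the 5 libraries the late group was lower, and the highest late library, at 172 CPM, was below the lowest early one, at 714 CPM. For comparison, Cxcl12 reached 63488 and 65664 CPM in the authors' MSC class and 3586 and 2999 CPM in the Pre-osteoblast/chondrocyte class. The early group of Stroma1 was thus near the level of the Pre-osteoblast/chondrocyte class and that of Stroma2 below it. Both late groups were far below the level of that class. Here and below, levels of that class are over all its cells, 25 in Stroma1 and 66 in Stroma2. Only 26 of these carried an osteoblast pseudotime, so the class level is not that of a stage on the path.

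Igfbp4, a secreted protein that binds insulin-like growth factors, fell by a like amount. The gene lies on chromosome 11 (99041244 to 99054392). It stood at 1053 and 223 CPM in the early groups and at 18.3 and 15.9 CPM in the late groups. The log2 change was −4.15 (SE 0.39), and −4.14 with each barcode once. In Stroma1, 1 cell held 56.1% of the early Igfbp4 counts. In Stroma2 the leading cell held 12.7%, so the value of Stroma2 did not hang on 1 cell. Igfbp4 was at 1739 and 2147 CPM in the Pre-osteoblast/chondrocyte class.

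Other genes of the stromal niche list had values in the same direction without being called. Vcam1, an adhesion receptor for blood cells, had 17 and 45 early counts, or 218 and 70.8 CPM, and 0 and 3 late counts. Over both samples its early to late ratio was 24.0, with a 95% counting interval from 7.85 to 120. Cxcl14, another chemokine, had 38 early counts and 1 late count, a ratio of 44.2 with an interval from 7.47 to 1790. These intervals cover counting error only. Hp, which encodes haptoglobin, stood at 218 and 104 CPM early and at 9.15 and 8.59 CPM late. Apoe, a lipid carrier, stood at 231 and 95.9 CPM early and at 0 and 7.36 CPM late. Lpl, a lipase of the adipocyte lineage, stood at 334 and 61.3 CPM early and at 0 and 11.1 CPM late. In each of these genes both early sums lay above both late sums, but the share of all genes tested with this trait was not computed.

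Of the markers of Lepr stromal cells, Cxcl12 and Vcam1 are given above, while Lepr, Kitl and Adipoq had few counts, and fewer late than early. Lepr itself, the leptin receptor, had 31 early and 16 late counts in all. It stood at 128 and 33.0 CPM early and at 9.15 and 18.4 CPM late, beside 145 and 150 CPM in the Pre-osteoblast/chondrocyte class. Kitl, the ligand of the Kit receptor, had 24 and 7 counts, and Adipoq, an adipocyte hormone, had 21 and 2. Of 34 genes in the stromal niche list, 17 passed the count filter. Of these 2 were called lower, beside 0.0605% of all genes tested, 12 were lower in both samples, beside 26.2%, and 10 were at least 2-fold lower in both, beside 1.81%. The median log2 change was −2.23, beside 0.02 over all genes, and −2.67 with each barcode once. A gene of this list could pass the filter through its early counts alone, so these counts describe the list and support nothing. All 34 genes together summed to 8832 and 2841 CPM early and to 860 and 928 CPM late. Pdgfra, a growth factor receptor on the same list, had values on the other side, with 218 and 184 CPM early and 201 and 225 CPM late (log2 change 0.35, SE 0.23); in Stroma1 it was higher on the TMM scale only.

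The Cxcl12 counts came from few cells. In the early groups, 19 of 174 cells held at least 10 Cxcl12 counts each (Cxcl12-rich cells below), and these held 850 of the 951 early counts. They were 5 cells of Stroma1 and 14 of Stroma2, were found in all 5 libraries, and 13 of them lay in the first of 4 equal bins of the path. With each barcode once, 4 such cells of Stroma1 and 12 of Stroma2 remained, since some share a barcode with another member cell. None of the 173 late cells reached 10, and the highest late cell had 9. The limit of 10 was chosen after the values were seen. It is in counts and not in CPM, so deep cells reach it more easily. Among early cells of Stroma2, a cell with 8 Cxcl12 counts of 596 fell short, while another with 27 of 9455 passed. Partly through this rule, the 19 cells were deeper than the other early cells. Their median was 5751 counts against 2351.5 in Stroma1 and 5170.5 against 3208 in Stroma2. Type I collagen made up 35.7% and 41.1% of their counts, beside 34.2% and 41.0% in the other early cells, so they carried the osteoblast collagen at the level of their group. No doublet caller was run, and whether these cells were doublets was not tested.

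**Figure D2:**
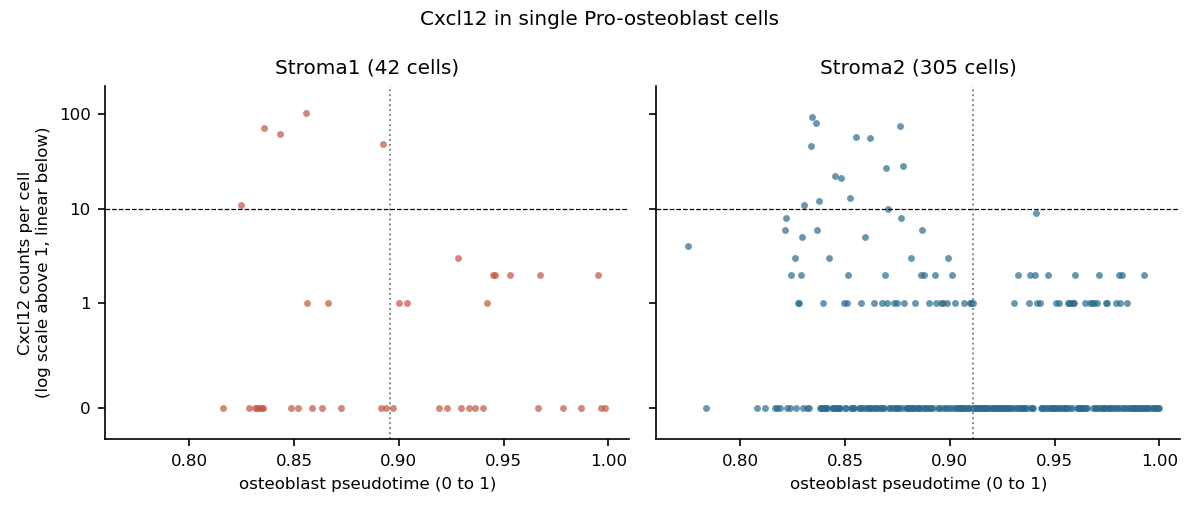
Cxcl12 counts of each Pro-osteoblast cell against its osteoblast pseudotime, 1 point per cell, with the median split as a dotted line and 10 counts as a dashed line (vertical axis logarithmic above 1). All 19 cells at or above 10 counts lie left of the split, and late cells reach at most 9.

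Genes lower in the late group divided by their level in these 19 cells. Hp stood at 551 and 852 CPM in the Cxcl12-rich early cells of Stroma1 and Stroma2, and at 0 and 8.86 CPM in the other early cells, beside 9.15 and 8.59 CPM late. Outside the 19 cells, early Hp was thus at or below the late level, also with each barcode once, at 0 and 8.09 CPM beside 9.37 and 8.27 CPM late. Apoe stood at 583 and 600 CPM in the rich cells and at 0 and 31.9 CPM in the others, beside 0 and 7.36 CPM late. Igfbp5 stood at 1620 and 852 CPM in the rich cells and at 21.3 and 90.4 CPM in the others, beside 27.4 and 54.0 CPM late. Outside the 19 cells, Apoe and Igfbp5 thus stood above the late level in Stroma2 only. Igfbp4 kept a remainder in both samples: 42.5 and 86.8 CPM in the other early cells, above the late 18.3 and 15.9 CPM. Vcam1 did so as well, at 21.3 and 28.35 CPM in the other early cells beside 0 and 3.68 CPM late. When the 19 cells were left out, the median of the stromal niche list was −0.56. In that fit Cxcl12 and Igfbp4 were not called, at −0.67 and −2.08, while 10 other genes were: Bglap, Bglap2, Col11a1, Dcn and Tsc22d1 higher, and Col3a1, Col6a1, Fmod, Serpine2 and Tnc lower. Since the cells were chosen by their Cxcl12 counts, the value of Cxcl12 in that fit is set by the choice.

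**Figure D3:**
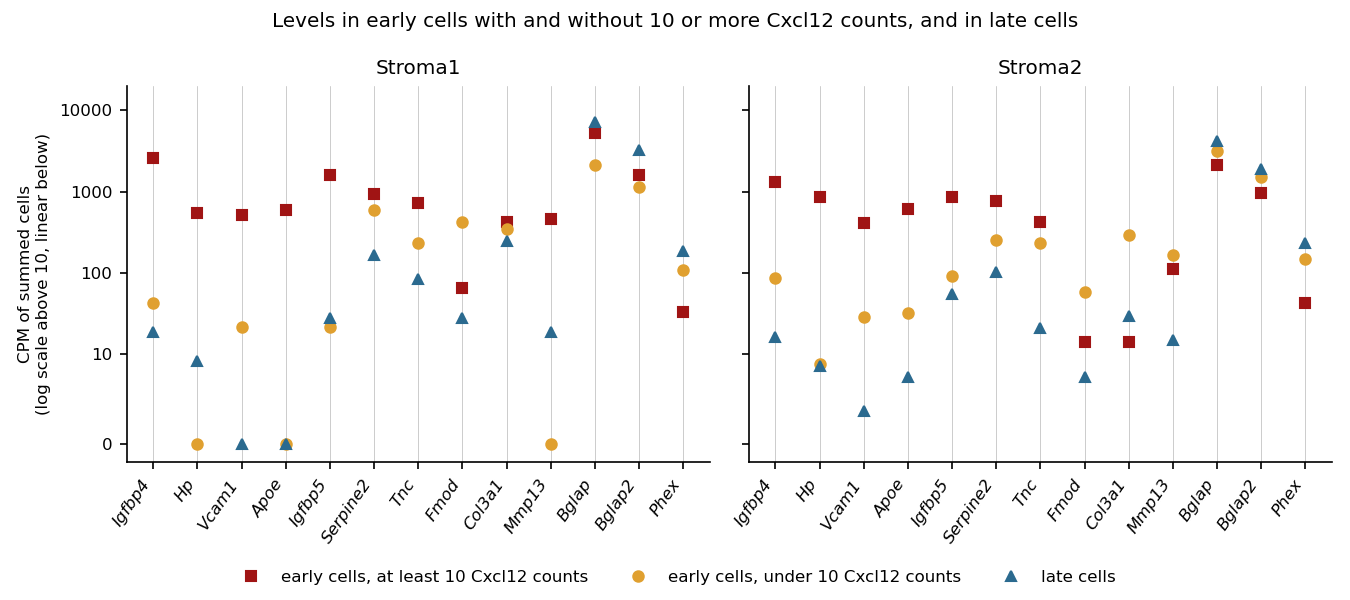
CPM of 13 genes in the summed early cells with at least 10 Cxcl12 counts (squares), the other early cells (circles) and the late cells (triangles) of each sample, on an axis that is logarithmic above 10. Hp is near or below the late level in the other early cells, while Tnc, Serpine2 and Fmod lie above it there in both samples.

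Several genes of the matrix around cells were low in the late group whether or not the Cxcl12-rich cells were counted. Tnc encodes tenascin C, a matrix protein of growing and repairing bone (chromosome 4, 63959785 to 64047015). It stood at 424 and 250 CPM early and at 82.3 and 20.9 CPM late, a log2 change of −2.96 (SE 0.38), of −3.06 with each barcode once and of −2.61 without the 19 cells. Serpine2, a secreted protease inhibitor, stood at 732 and 311 CPM early and at 165 and 101 CPM late, with −1.62 (SE 0.22), −1.90 with each barcode once and −1.30 without the 19 cells. Fmod, which encodes the collagen-binding fibromodulin, stood at 282 and 53.5 CPM early and at 27.4 and 7.36 CPM late, with −2.83 (SE 0.50), −2.94 and −3.11. All 3 were lower late in all 5 libraries. None was called in the main fit. Tnc was called lower in 16 of 19 alternative fits, Serpine2 in 14 of 19 and Fmod in 10 of 16.

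Levels of these genes in the other classes differed from gene to gene. Tnc was at 9272 and 9188 CPM in the Pre-osteoblast/chondrocyte class, at 7435 and 8148 CPM in the Osteoblast progenitor class and at 4470.3 and 4218 CPM in the MSC class. Serpine2 was at 10413 and 8085 CPM, at 4497 and 4002 CPM and at 5526 and 5345 CPM in the same classes. Both were thus far higher in all 3 classes than in either Pro-osteoblast group, while Fmod, at 163 and 267 CPM in the Pre-osteoblast/chondrocyte class, was not above the early group of Stroma1. Mmp13, a collagenase, was at 22819 and 22911 CPM in the Pre-osteoblast/chondrocyte class, at 180 and 160 CPM in the early groups and at 18.3 and 14.7 CPM in the late groups (log2 change −3.22, SE 0.43). In Stroma1, 1 early cell held 78.6% of the Mmp13 counts and in Stroma2 1 cell held 37.2%. The collagen VI chains Col6a1 and Col6a2, which form fine filaments around cells, stood at 180 and 91.2 CPM and at 192 and 123 CPM early. Late they stood at 9.15 and 17.2 CPM and at 64.0 and 18.4 CPM, with log2 changes of −2.56 (SE 0.51) and −2.14 (SE 0.47). Both chains were higher in the Osteoblast progenitor class, with Col6a1 at 947 and 889 CPM, than in the Pre-osteoblast/chondrocyte class, with 362 and 384 CPM. Col3a1, a fibrillar collagen of soft tissue, had −1.87 (SE 0.58), but 1 cell held 49.1% of its early counts in Stroma2 and 1 cell 85.2% of its late counts in Stroma1. Without the first bin of the path its value was 0.01.

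The path was also cut into 4 bins of about equal cell number in each sample, 2 early and 2 late. Cxcl12, Tnc and Serpine2 were highest in the first bin of both samples. Cxcl12 stood at 4776, 3261, 111 and 180 CPM in the 4 bins of Stroma1 and at 1859, 480, 62.9 and 55.4 CPM in those of Stroma2. Tnc stood at 889, 126, 148 and 18.0 CPM and at 435, 130, 36.7 and 6.93 CPM. Serpine2 stood at 922, 610, 148 and 180 CPM and at 451, 221, 113 and 90.1 CPM. In all 3 genes most of the difference lay between the first and the third bin. With each barcode once, Cxcl12 stood at 5209, 3461, 115 and 146.5 CPM in Stroma1 and at 1952, 487, 61.0 and 57.7 CPM in Stroma2. The first bin was also the shallowest, with medians of 1869 and 2236.5 counts per cell against 4409.5 and 4772 in the second. Without it, the late group against the second bin alone gave −3.47 for Cxcl12, −3.26 for Igfbp4, −1.80 for Tnc and −1.26 for Serpine2, and Cxcl12, Igfbp4 and Hp were called.

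**Figure D4:**
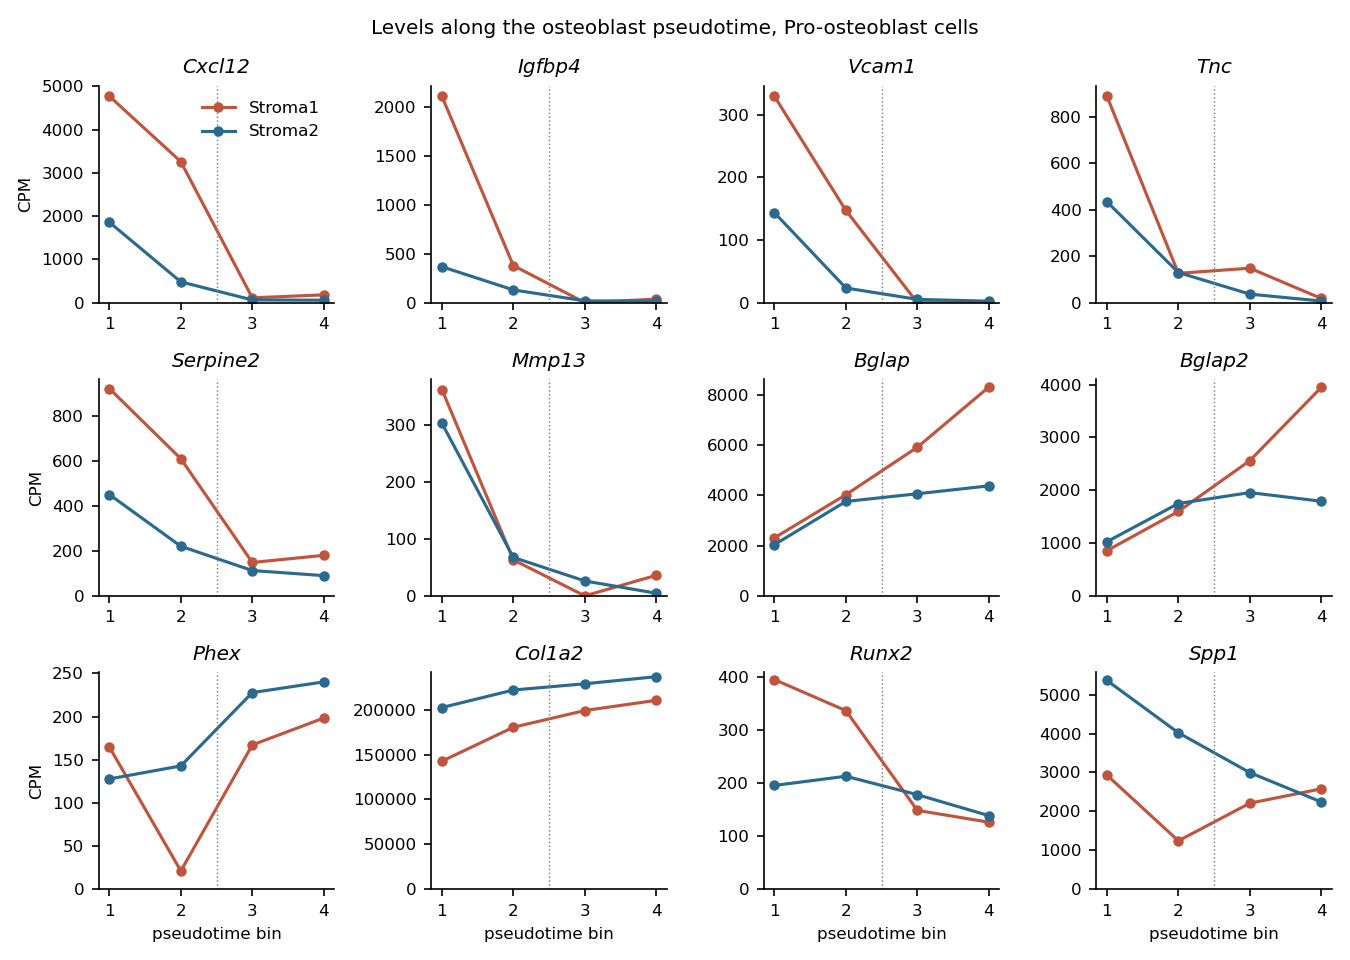
CPM in each bin of the osteoblast pseudotime for 12 genes in Stroma1 and Stroma2, with the split between early and late groups as a dotted line. Cxcl12, Igfbp4, Vcam1, Tnc, Serpine2 and Mmp13 are highest in the first bin of both samples, Bglap and Col1a2 are lowest there, and Spp1 runs differently in the 2 samples.

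Osteocalcin stood higher in the late group. Bglap (chromosome 3, 88383501 to 88384464, minus strand) was at 3350 and 3074 CPM early and at 7116 and 4223 CPM late. The log2 change was 0.96 (SE 0.22), 0.95 with each barcode once and 1.23 without the 19 Cxcl12-rich cells, where it was called. It was higher late in all 5 libraries, from 2640 to 6234 CPM in library 1.1, from 3904 to 7898 in 1.2, from 1705 to 2552 in 2.1, from 3823 to 5650 in 2.2 and from 3726 to 5501 in 2.3. Libraries differed in level more than the groups of Stroma2 did, and in each the late group was the higher. Bglap was not called in the main fit and was called higher in 10 of 19 alternative fits.

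The neighbouring copies gave like values. Bglap2 was at 1309 and 1464 CPM early and at 3265 and 1869 CPM late (log2 change 0.98, SE 0.27). Bglap3 was at 244 and 321 CPM early and at 558 and 437 CPM late (0.86, SE 0.24). A GENCODE M21 transcript of Bglap is 98.6% identical to one of Bglap2 and 96.1% identical to one of Bglap3 over 440 aligned bases. The way reads were divided among these copies is not known here. The 3 values are therefore not independent, and their split is uncertain. In Stroma1, 1 early cell held 29.1% of the Bglap counts and 1 late cell 18.9%.

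The share of cells with an osteocalcin count was also larger late in both samples. Bglap had a count in 71.4% of the early cells in Stroma1 (15 of 21, exact 95% bounds 47.8 and 88.7) and in 85.6% of those in Stroma2 (131 of 153, 79.0 and 90.8). In the late groups it had a count in 21 of 21 cells (100%, 83.9 to 100) and 138 of 152 (90.8%, 85.0 to 94.9). These bounds cover counting error only. They take each cell as separate, though 189 of the 347 cells shared a barcode with another member cell, so they may be too narrow. With each cell thinned to 817 counts, which left out 6 and 25 early cells and 0 and 4 late cells, the shares were 60.0% and 66.4% early and 90.5% and 84.5% late. In the MSC class, 0 of 502 cells had a Bglap count, which allows a share of up to 0.598%, and 2 of 815 cells (0.245%) had one. MSC cells were shallower than those of either group, at medians of 1377.5 and 1160 counts per cell. The part of background in the Bglap shares was not tested. By bin, Bglap stood at 2305, 4018, 5904 and 8294 CPM in Stroma1 and at 2035, 3751, 4056 and 4370 CPM in Stroma2. In Stroma2 the step lay between the first and the second bin, and in Stroma1 each bin stood above the one before.

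Other genes of mineralization had values on either side of 0. Alpl, the phosphatase that frees phosphate for mineral, stood at 552 and 583 CPM early and at 412 and 369 CPM late (log2 change −0.39, SE 0.19). Ank, which supplies pyrophosphate, an inhibitor of mineral, outside the cell, stood at 167 and 80.2 CPM early and at 91.5 and 35.6 CPM late (−0.87, SE 0.40) and was lower in all 5 libraries. Ifitm5, a membrane protein of osteoblasts, stood at 552 and 355 CPM early and at 503 and 404 CPM late (0.26, SE 0.18). Of the 20 genes of osteocalcin and mineral in the list, 14 passed the filter, with a median log2 change of 0.28. In both samples 7 were higher and 3 lower, beside 26.8% and 26.2% of all genes tested. None of the 14 was called.

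Genes of the transition to osteocytes were mixed. Phex, a peptidase on osteoblasts and osteocytes that keeps phosphate in balance (chromosome X, 157162075 to 157415312), stood at 77.0 and 137 CPM early and at 183 and 234 CPM late. Its log2 change was 1.04 (SE 0.27), and it was higher late in all 5 libraries. The early value of Stroma1 is 6 counts, of which the leading cell held 66.7%. By bin, Phex stood at 164.7, 21.0, 167.1 and 198.3 CPM in Stroma1, so the first bin was near the third. Pdpn, which encodes podoplanin, a membrane protein of young osteocytes, had 11 early and 36 late counts (1.64, SE 0.72). Dmp1, a matrix phosphoprotein of osteocytes, stood at 282 and 605 CPM early and at 256 and 523 CPM late (−0.02, SE 0.19). Of 20 osteocyte markers, 7 passed the filter. In both samples 4 were higher and none lower, beside 26.8% and 26.2% of all genes tested. The late group did not hold counts of Sost or Fgf23, the hormone-like products of mature osteocytes.

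The phosphoproteins of bone matrix had log2 changes near 0 over both samples. Ibsp, bone sialoprotein, stood at 2246 and 1794 CPM early and at 1528 and 1857 CPM late (log2 change −0.02, SE 0.18). It was higher in the Pre-osteoblast/chondrocyte class, at 4817 and 4393 CPM, and in the MSC class, at 5629 and 5962 CPM. Spp1, osteopontin, stood at 1900 and 4551 CPM early and at 2397 and 2594 CPM late (−0.10, SE 0.30). The 2 samples differed in direction for Spp1. Within libraries it was lower late in 4 of 5, and higher only in library 1.1, from 2229 to 3974 CPM. In Stroma1, 1 late cell held 31.7% of the Spp1 counts. Spp1 stood at 74070 and 78255 CPM in the Pre-osteoblast/chondrocyte class, far above both groups.

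**Figure D5:**
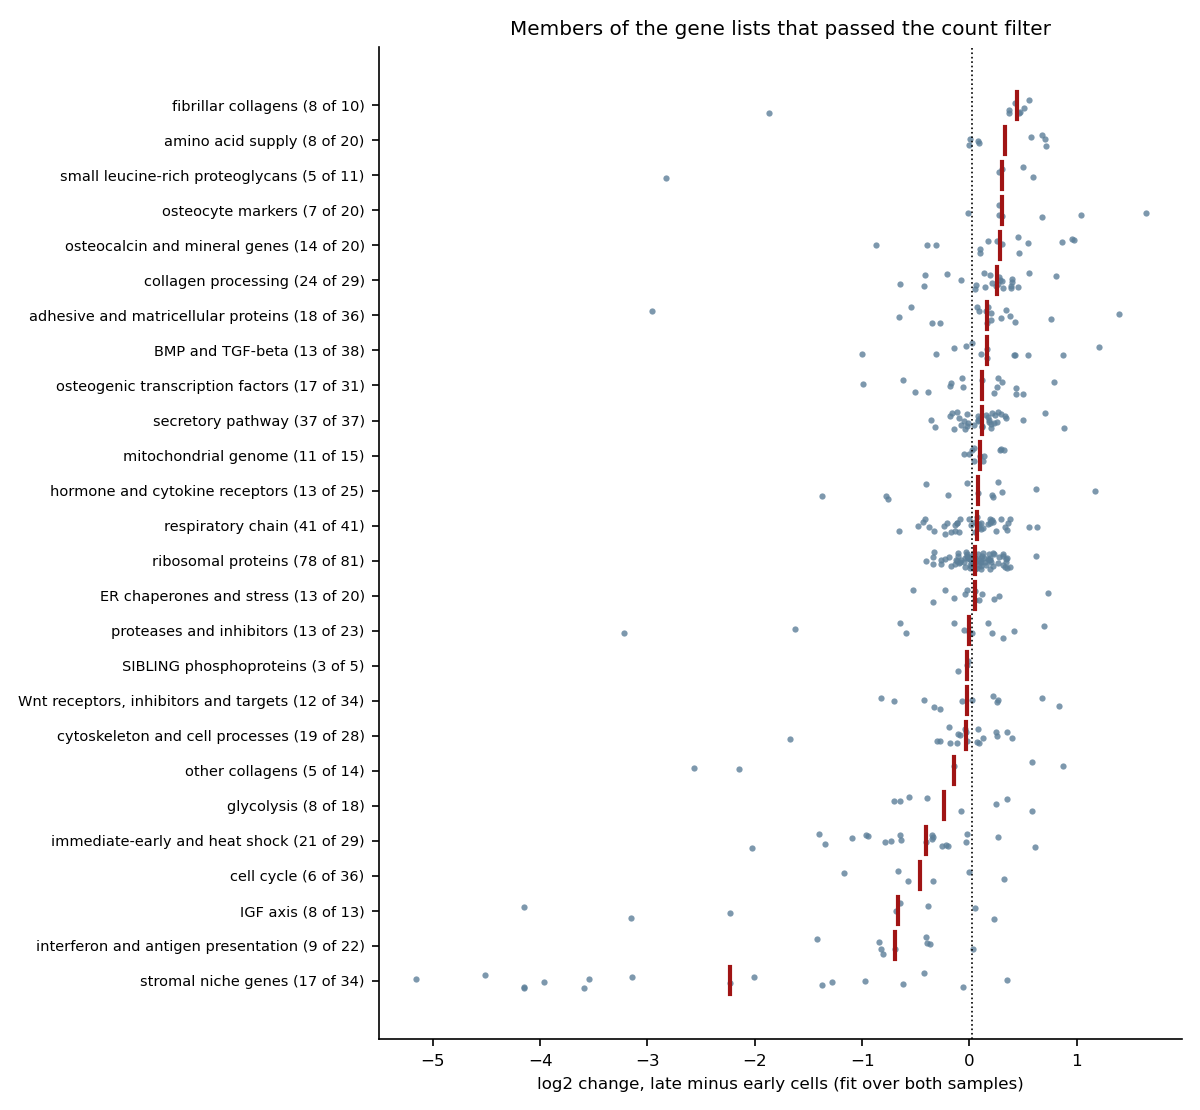
Log2 change, late minus early, of each member that passed the count filter, by gene list; red bars are list medians, the dotted line is the median of all genes tested, and numbers give members that passed of members listed. Stromal niche genes have the lowest median, −2.23, and fibrillar collagens the highest, 0.44.

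Type I collagen made up a large share of all counts. Col1a1 and Col1a2 together made up 34.8% and 41.0% of the early counts and 42.0% and 44.0% of the late counts, with exact 95% intervals no wider than 0.34 percentage points to either side. These intervals cover counting error only and leave out the spread between cells. In Stroma1 the leading early cell held 14.0% of the Col1a1 counts. Col1a1 stood at 182255 and 195983 CPM early and at 214807 and 206842 CPM late (log2 change 0.36, SE 0.26). Col1a2 stood at 165747 and 214344 CPM early and at 204928 and 233217 CPM late (0.42, SE 0.26). Both were higher late in all 5 libraries, and neither was called. With each barcode once the log2 changes were 0.38 and 0.42. The share of type I collagen was 29.5% and 38.2% in the first bins and 42.1% and 44.5% in the last.

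The minor fibrillar collagens that join type I fibrils had values on the same side. Col5a2 stood at 4801 and 4478 CPM early and at 5351 and 5735 CPM late (log2 change 0.46, SE 0.16). Col11a2 stood at 2234 and 2170 CPM early and at 2909 and 2720 CPM late (0.55, SE 0.16). Col11a1 differed in size between samples, with 3235 and 2977 CPM early and 2854 and 4666 CPM late, and was higher in Stroma1 on the TMM scale only. Of 10 fibrillar collagens, 8 passed the filter. In both samples 6 were higher, beside 26.8% of all genes tested, and Col3a1 was lower. The median of the 8 was 0.44, and 0.43 with each barcode once. Without TMM scaling that median was 0.24. Sparc, a collagen-binding matrix protein, stood at 48497 and 58838 CPM early and at 59656 and 65050 CPM late (0.43, SE 0.21) and was higher in all 5 libraries.

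Enzymes that modify and cross-link collagen had small values. Of 29 genes of collagen processing, 24 passed the filter. In both samples 13 were higher and 4 lower, beside 26.8% and 26.2% of all genes tested. The median log2 change was 0.25, which was 0.05 without TMM scaling. The prolyl hydroxylase subunit P4ha1 stood at 270 and 236 CPM early and at 293 and 284 CPM late (0.40, SE 0.21). Lox, which cross-links collagen, stood at 1630 and 1500.1 CPM early and at 1537 and 1978 CPM late (0.39, SE 0.17), higher in Stroma1 on the TMM scale only. Serpinh1, the collagen chaperone, stood at 7522 and 6988 CPM early and at 7821 and 7117 CPM late (0.24, SE 0.16). The wider secretory pathway gave a median of 0.12 over 37 genes, which was −0.06 without TMM scaling. Its summed level was 12721 and 11039 CPM early and 11882 and 10577 CPM late. Creb3l1, a transcription factor for secretory genes in osteoblasts, stood at 526 and 495 CPM early and at 540 and 487 CPM late (0.18, SE 0.18).

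A few further secreted proteins are named after their values were seen, and none was called. Cthrc1, a secreted protein of collagen-making cells, was at 770 and 857 CPM early and at 1217 and 1222 CPM late (log2 change 0.76, SE 0.17). Serpinf1, the pigment epithelium-derived factor whose loss causes brittle bone, was at 1733 and 2576 CPM early and at 3256 and 2889 CPM late (0.70, SE 0.23). The early and late values of Cthrc1 and of Serpinf1 did not overlap, and both were higher in all 5 libraries. The shares of all genes tested with these traits were not computed. Of the small leucine-rich proteoglycans, Dcn (decorin) was at 3145 and 5022 CPM early and at 4949 and 5631 CPM late (0.59, SE 0.20). Lum (lumican) was at 1463 and 1385 CPM early and at 1857 and 1663 CPM late (0.50, SE 0.16). Fmod was thus the exception among the 5 proteoglycans that passed the filter: 4 were higher in both samples.

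No osteogenic transcription factor was called. Runx2, the master regulator of the lineage (chromosome 17, 44495987 to 44814797), stood at 359 and 206 CPM early and at 137 and 157 CPM late (log2 change −0.51, SE 0.28). It was lower late in all 5 libraries, and by most in library 1.1, from 499 to 58.4 CPM. Sp7, which acts after Runx2, stood at 334 and 203 CPM early and at 265 and 248 CPM late (0.27, SE 0.23). In CPM Sp7 was lower late in Stroma1 and higher in Stroma2. Atf4, which acts on osteocalcin and amino acid supply, stood at 167 and 197 CPM early and at 220 and 200 CPM late (0.30, SE 0.25). Mef2c, a factor of late osteoblasts, stood at 321 and 239 CPM early and at 229 and 355 CPM late (0.43, SE 0.26). Mef2c, like Sp7, was lower late in the CPM of Stroma1 and higher in those of Stroma2. Twist1, known as an inhibitor of Runx2, stood at 192 and 228 CPM early and at 439 and 291 CPM late (0.78, SE 0.27), higher in all 5 libraries. Of 31 factors, 17 passed the filter, 5 were higher and 4 lower in both samples, none was called, and the median of 0.12 became −0.07 without TMM scaling.

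No gene of the Wnt, BMP or TGF-beta lists was called. Of 34 Wnt genes, 12 passed the filter, 4 were higher and 3 lower in both samples. Wif1, a secreted Wnt inhibitor, stood at 347 and 99.1 CPM early and at 82.3 and 71.2 CPM late (log2 change −0.82, SE 0.40). The 2 samples differed in size, and the value turned to 0.53 without the first bin. Of 38 BMP and TGF-beta genes, 13 passed, 3 were higher and 1 lower in both. Tgfbr2, a TGF-beta receptor, had 24 early and 57 late counts (1.21, SE 0.64). Among receptors for hormones and cytokines, Pth1r, the receptor for parathyroid hormone, stood at 231 and 260 CPM early and at 274 and 218 CPM late (0.08, SE 0.24). Ghr, the growth hormone receptor, had 34 early and 23 late counts (−0.78, SE 0.49).

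Of the IGF binding proteins named here, Igfbp4, Igfbp5 and Igfbp7 were lower late in both samples, and Igfbp3 showed no clear direction. Besides Igfbp4, Igfbp5 stood at 655 and 176 CPM early and at 27.4 and 54.0 CPM late (log2 change −2.23, SE 0.49). Igfbp7 stood at 282 and 108 CPM early and at 18.3 and 12.3 CPM late (−3.16, SE 0.46). Igfbp3 had 30 early and 43 late counts (0.22, SE 0.51), a value smaller than its SE, and was lower in Stroma1 and higher in Stroma2. Irs1, which relays the signal of the IGF receptor, stood at 154 and 86.5 CPM early and at 128 and 82.2 CPM late (0.05, SE 0.32). Of 13 genes of the axis, 8 passed the filter, 1 was called lower, beside 0.0605% of all genes tested, and 5 were lower in both samples, beside 26.2%. Their median was −0.67, and −0.87 with each barcode once. The 13 genes summed to 2311 and 815 CPM early and to 274 and 318 CPM late. Igfbp5 was, as given above, mostly counted in the Cxcl12-rich cells. Igfbp4 and Igfbp5 are also members of the stromal niche list, so these lists are not separate results. Here, too, a gene could pass the filter through its early counts alone.

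Most antigen presentation and early-response genes that passed the filter had lower values late, and none was called. The class I heavy chains H2-K1 and H2-D1 stood at 822 and 401 CPM and at 770 and 332 CPM early. Late they stood at 274 and 248 CPM and at 229 and 248 CPM, with log2 changes of −0.82 (SE 0.23) and −0.70 (SE 0.29). These genes are close copies of one another, so their split is uncertain. Of 22 genes of interferon response and antigen presentation, 9 passed the filter. In both samples 7 were lower and none higher, beside 26.2% and 26.8% of all genes tested, with a median of −0.70. That median was −0.34 without the 19 Cxcl12-rich cells. A gene of this list, too, could pass the filter through its early counts alone. H2-K1 was at 5444 and 5254 CPM in the MSC class.

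Of 29 immediate-early and heat shock genes, 21 passed the filter, with a median log2 change of −0.41. In both samples 13 were lower and 2 higher, beside 26.2% and 26.8% of all genes tested. Without the 19 Cxcl12-rich cells the median was −0.29, and the log2 changes of Egr1 and Socs3 were −0.23 and −0.71. Egr1, a factor induced within minutes of a stimulus, stood at 128 and 108 CPM early and at 45.7 and 54.0 CPM late (−0.95, SE 0.38). Socs3, a feedback inhibitor of cytokine signals, stood at 231 and 69.2 CPM early and at 18.3 and 36.8 CPM late (−1.40, SE 0.58). With each cell thinned to one depth the few members still tested had a median of 0.16.

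Few cell cycle genes passed the filter. Of 36, 6 did, and the largest value was that of Ccnd3, a D-type cyclin, with 43 early and 23 late counts (log2 change −1.17, SE 0.49). Among glycolytic enzymes, Gapdh stood at 334 and 223 CPM early and at 201 and 157 CPM late (−0.40, SE 0.22). Ldha stood at 257 and 168 CPM early and at 110 and 115 CPM late (−0.56, SE 0.28). Both were lower late in all 5 libraries. Respiratory chain genes had a median of 0.07 over 41 genes, and ribosomal proteins 0.05 over 78. Without TMM scaling these medians were −0.12 and −0.14, beside −0.15 over all genes on that scale.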

How the data were processed

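Bone marrow stromal cells of 2 mouse samples were measured by inDrops single-cell RNA-seq. The deposited table holds raw counts per gene and barcode, with the authors' filter, class and osteoblast pseudotime, a fraction from 0 to 1, per the file headers. Per the submitters' processing notes Bowtie 1.1.1 and the build GRCm38 were used; how reads were counted, with which annotation and use of molecular identifiers, is not given in the sources used here. The gene columns summed to the deposited total in every barcode.

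Passing Pro-osteoblast cells were split at the median pseudotime of each sample, and counts were summed per group and sample. The 4 sums were fitted with edgeR 4.0.16 (R 4.3.3), quasi-likelihood test, with TMM scaling, filterByExpr at a minimum count of 10, and sample and group as terms. Genes were called at a Benjamini-Hochberg adjusted p under 0.05. Sample is the block, or pairing, because both groups come from one sample; a gene has 1 residual degree of freedom, and the common dispersion was 0.0275. The sums range from 77902 to 814848 counts. On data simulated for this comparison over 3435 genes, the fit recovered 61.3% of genes changed by 2 on the log2 scale. It recovered 3.23% of those changed by 1, with 0 false calls. The simulation gave every gene one fixed dispersion, had no sample effect, and changed only well-counted genes. In the real sums single cells held large shares of some genes, so these rates may not carry over.

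The members, the 30 gene lists and the named genes were chosen with earlier results of these data known. Named genes are the 15 largest rises and falls among called genes that moved one way in both samples, at a mean of at least 100 CPM, a fixed set of marker genes, and in each list up to 4 called members and 2 nearest 0. Genes called in at least 2 alternatives and further list examples were added after their values were seen. Alternatives used DESeq2 1.42.0, limma 3.58.1 on log2(CPM + 10) of cell means computed from the deposited counts, other scalings, filters, cell sets and splits. No doublet caller was run and the labels do not say whether doublets were removed. Intervals are exact (Clopper-Pearson) at 95% and, like floors of 3 counts, cover counting error only. They take cells or counts as independent draws, which cells that share a barcode and counts of the same cell may not be. Since the labels name no animals, the spread between the samples may be technical.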

Additional observations from a re-analysis of the deposited data

How the results depend on the processing

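The number of called genes depended on the processing, and the cause was not tested. Beside the 2 called genes, DESeq2 called 3. Upper-quartile factors gave 14, raw totals 20, no filter on low counts 20 of 14188 genes tested, and a minimum count of 50 gave 13 of 624. Without sample as a block, that is without the pairing of groups by sample, 5 genes were called. Sums per group and library gave 20, the last cells against the first with the middle of the path left out 32, one median over both samples 18, each barcode once 21, cells thinned to 817 counts 11 of 537 genes, and limma on means of cell CPM 17. Leaving out 1 library at a time gave 3 to 18 calls. In alternatives added after seeing the data, leaving out the first bin gave 3 calls, and leaving out the Cxcl12-rich cells gave 10. Cxcl12 and Igfbp4 were called lower in 18 of 19 alternatives, all but the last, with log2 changes from −4.60 to −0.67 and from −4.88 to −2.08. Of 183 named genes tested, 103 kept their sign in every alternative run; of the 85 with a log2 change of at least 0.5 in size, 8 turned sign in some alternative. Of 29 list medians 10 kept their sign, and none of the 3 that were at least 0.5 in size turned. Scaling moved the median of all genes from 0.02 to −0.15 with raw totals, so values of that size carry no direction. With 21 cells in each group of Stroma1, single cells held large shares of low genes.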

Other observations

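A further 4 genes with higher values in the late group were picked after their values were seen, and none was called. Tsc22d1, a transcriptional regulator induced by TGF-beta, stood at 1450.5 and 1384 CPM early and at 1839 and 1716 CPM late in Stroma1 and Stroma2 (log2 change 0.52, SE 0.16). Prss35, a secreted serine protease homologue, stood at 128 and 102 CPM early and at 210.4 and 195 CPM late (1.05, SE 0.26), and it had almost no counts in the MSC class, at 0 and 1.95 CPM. Thbs2, a thrombospondin of the matrix, had 15 early and 47 late counts (1.40, SE 0.50). Spns2, a transporter of sphingosine-1-phosphate, had 30 early and 76 late counts (1.17, SE 0.43) and was higher in all 5 libraries. Of 36 adhesive and matricellular genes, 18 passed the filter, 9 were higher and 3 lower in both samples, with a median log2 change of 0.17. Thbs2 and Spns2 were at low counts, and the early and late CPM of each of these 4 genes did not overlap between samples. The share of all genes tested without overlap was not computed, so this sets none of them apart.

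Genes of amino acid supply were mixed. Of 20, 8 passed the filter, 3 were higher in both samples, none was lower in both and 5 were mixed, with a median log2 change of 0.33. Pycr1, an enzyme of proline synthesis, stood at 89.9 and 53.5 CPM early and at 128 and 77.3 CPM late (0.70, SE 0.38) and was higher in all 5 libraries. Slc38a10, an amino acid transporter, stood at 205 and 279.9 CPM early and at 384 and 318 CPM late (0.57, SE 0.25). Psat1, an enzyme of serine synthesis, had 33 early and 39 late counts (0.00, SE 0.47). Car3, a carbonic anhydrase, was abundant in both groups, at 1823 and 2121 CPM early and 1848 and 2058 CPM late (0.18, SE 0.16). Postn, a matrix protein of the periosteum, did not pass the filter, with 26 early and 13 late counts.

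On the lower side, Gdpd2, Serping1 and Gas6 had values like those of the stromal niche list. Serping1, an inhibitor of complement, stood at 359 and 129 CPM early and at 9.15 and 24.5 CPM late (log2 change −2.77, SE 0.52), beside 7177 and 7338 CPM in the MSC class. Gas6, a ligand of the TAM receptors, had 40 early and 4 late counts, and Gdpd2, a phosphodiesterase of osteoblast membranes, had 61 and 5. All 3 were lower late in all 5 libraries, and none was called in the fit of the 4 sums. Timp1, an inhibitor of matrix proteases, stood at 154 and 233 CPM early and at 73.2 and 146 CPM late (−0.59, SE 0.26), with 160 early and 127 late counts.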
